A study of Gallus gallus with 6 samples.

Results

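The mitochondrial genome of the chicken encodes a small set of proteins, all of them subunits of the respiratory chain or of the ATP synthase. This section describes 9 of their mRNAs, MT-ND1, MT-ND2, MT-CO1, MT-CO2, MT-ATP6, MT-CO3, MT-ND4, MT-ND5 and MT-CYB, out of 15900 gene IDs listed in all 6 libraries. They were taken as a list of 9 IDs in heavy-strand order, and all 9 were found in every library. The list was drawn up with their high counts, and their levels in both groups, already known, so differences between ES cells and embryos are given below as a description with no test of their own.

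RNA sequencing was done on chicken embryonic stem (ES) cells and on cells of freshly laid stage X embryos, with 3 libraries in each group. The ES cells (cES, wild type, passage 10) were derived from stage X blastoderms and grown at 38 °C on irradiated mouse fibroblasts, a feeder layer. Their medium held N2 and B27 supplements with 10 ng/ml ovotransferrin and 10 ng/ml chicken LIF. It further held 2.5 µM IWR-1 (a tankyrase inhibitor), 2 µM Gö6983 (a protein kinase C inhibitor) and 2 µM SB431542 (an inhibitor of activin and NODAL type I receptors). The embryo group (EGKX, wild type) is primary cells of the blastoderm, a flat disc of cells on the yolk before the primitive streak. For both groups the eggs were kept at 16 °C. The labels do not name a line, culture or embryo for any library and do not say if embryos were pooled, so the spread between libraries may be technical. The libraries held 13007413 to 13403975 expected counts in the ES cells and 16068898 to 17082488 in the embryos. The third embryo library stood apart from the others in mitochondrial counts. The summed share, the median ratio of the members, the ratios of the complexes and the relation to gene order are also given without it. The shares of single genes within the pool are not. The labelled cell types were not checked against marker genes, since the files pair no ID with a name.

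Mitochondrial DNA is transcribed from promoters in its control region into long transcripts that cover many genes of one strand. The tRNA genes that lie between most of the mRNAs and rRNAs are cut out of these transcripts, which sets the ends of the mRNAs, and a poly(A) tail is then added. Genes of one strand thus start from shared precursors, and their steady levels also depend on how long each mRNA lasts. The mitochondria of an early vertebrate embryo are those it received from the egg.

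The names of the 9 IDs were checked by length against the mitochondrial genes of the RefSeq table (assembly GRCg7b). Each ID has a single transcript, with the same transcript ID in both groups' files, and its length equals that of the RefSeq gene for 7 of the 9 in the ES cell files and for 8 of the 9 in the embryo files. MT-ND2 (ENSGALG00000043768) is 1041 bases long in the ES cell files and 1039 bases in the embryo files and in RefSeq. The first of these lengths is a whole number of codons and the second leaves 1 base over. MT-CO3 (ENSGALG00000035334, 784 bases) and MT-ND4 (ENSGALG00000036229, 1378 bases) also leave 1 base over, as is known for mitochondrial mRNAs whose stop codon is completed by the poly(A) tail. MT-CO1 (ENSGALG00000032142) has 1548 bases in all files and 1551 in RefSeq. MT-CO2 (ENSGALG00000032456) and MT-ATP6 (ENSGALG00000041091) both have 684 bases, so length cannot tell them from each other. The others are MT-ND1 (ENSGALG00000042750, 975 bases), MT-ND5 (ENSGALG00000029500, 1818 bases) and MT-CYB (ENSGALG00000032079, 1143 bases). The models are thus alike in both groups for 8 of the 9. By the same measure, a single transcript of equal length in all files, 1090 IDs were kept in a fit, beside 11614 in the main fit. IDs with several transcripts cannot meet this measure, so it does not show if their models are alike.

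The 9 mRNAs made up a far smaller part of the ES cell libraries than of the embryo libraries. Together they held 2.78%, 2.75% and 2.72% of all expected counts in the ES cell libraries, against 9.91%, 10.2% and 14.3% in the embryo libraries. All ES cell libraries lay below all embryo libraries, and the ES cell values lay close together. The means were 2.75% ± 0.0298 in ES cells and 11.5% ± 2.46 in embryos (SD, n = 3 each), so the ES cell share was 23.9% of the embryo share, and 27.3% of it without the third embryo library. TPM divides counts by the effective length of a gene (its length less the mean fragment length) and scales each library to the same sum. In TPM, the share was 4.21% ± 0.0784 in ES cells and 19.7% ± 3.51 in embryos. TPM thus also depends on the lengths of all other IDs. The files list 24881 IDs for ES cells and 24356 for embryos, with 15900 in all 6. The effect of these unlike lists on TPM cannot be told apart from that of the group and was not tested. A share can be low because there is less mitochondrial mRNA or because there is more nuclear mRNA, and in bulk RNA fewer cells of a type and less RNA per cell cannot be told apart. Only the ES cells were grown on mouse feeder cells, and whether feeder RNA entered their counts was not tested.

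Read depth did not limit these values. Single members had 23722 to 92832 expected counts in an ES cell library and 71254 to 571148 in an embryo library, and the counting error of a member was at most 0.649% of its value. All 54 values of the members were whole numbers within 1e-09. Whether reads from nuclear copies of mitochondrial sequence entered these counts was not tested. If the counting did not use strand, which the sources used here do not give, reads from the opposite strand cannot be told apart from those of the genes.

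All 9 mRNAs were lower in ES cells than in embryos, with no overlap between the groups for any of them. In a fit of all IDs, edgeR's quasi-likelihood test called 9 of the 9 lower in ES cells at an adjusted p under 0.05, while 43.2% of the 11614 IDs tested were called lower (85.1% in either direction). At least 2-fold lower were 8 of the 9 members and 23.4% of the IDs tested. Every ES cell library lay below every embryo library for the 9 members and for 43.7% of the IDs tested. The median edgeR log2 fold change was -2.04 over the members and -0.01 over all IDs tested. These counts describe genes chosen on this contrast and give them no support. With effective length as an offset in the fit, 4269 of all IDs tested were called lower in place of 5013, and 5498 higher in place of 4870. The part of unlike gene models in the calls over all IDs was not tested.

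**Figure D1:**
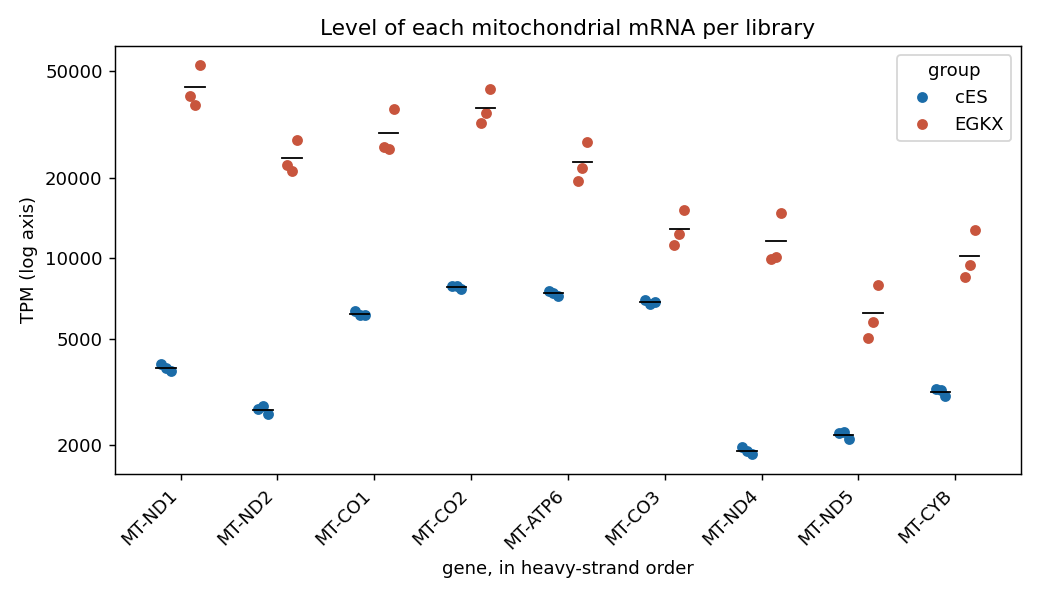
TPM (log axis) of each mRNA in each library, in heavy-strand order, with ES cell libraries (cES) on the left and embryo libraries (EGKX) on the right of each pair; black lines are group means. The ES cell points lie below the embryo points for all 9 genes, and the gap is widest at MT-ND1 and narrowest at MT-CO3.

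Of the complexes, complex I had the lowest summed level relative to the embryos, although one of its mRNAs, MT-ND5, was among the least different of the 9. Complex I (NADH dehydrogenase) passes electrons from NADH to ubiquinone and pumps protons across the inner membrane. MT-ND1, the subunit where the membrane arm joins the arm that oxidises NADH, had 3999, 3892 and 3793 TPM in ES cell libraries, against 40553, 37450 and 52640 TPM in embryo libraries. Its ES cell mean was 8.94% of the embryo mean. Its log2 ratio, taken as the difference of mean log2 TPM, was -3.47 ± 0.15 (SE, n = 3 each), the largest difference among the 9.

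MT-ND2, MT-ND4 and MT-ND5 are proton-pumping subunits of the membrane arm. MT-ND2 had 2722, 2789 and 2620 TPM in ES cell libraries, against 22331, 21099 and 27704 TPM in embryo libraries, a log2 ratio of -3.12 ± 0.12. MT-ND4 had 1956, 1898 and 1841 TPM in ES cell libraries, against 9893, 10098 and 14780 TPM in embryo libraries, a log2 ratio of -2.58 ± 0.19. For both, the third embryo library was the highest and the ES cell libraries lay far below the lowest embryo library. MT-ND5 had 2208, 2242 and 2106 TPM in ES cell libraries and 5024, 5771 and 7941 TPM in embryo libraries. The log2 ratio of MT-ND5 was -1.49 ± 0.20, so the complex I mRNAs did not share one ratio. Summed over the 4 genes, complex I stood at 10689 ± 286 TPM in ES cells and 85095 ± 15655 TPM in embryos (SD, n = 3 each), which is 12.6% of the embryo level.

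The cytochrome c oxidase mRNAs also differed among themselves. Complex IV hands electrons from cytochrome c to oxygen, MT-CO1 holds its haem and copper catalytic centre, and MT-CO2 takes up the electrons from cytochrome c. MT-CO1 had 6314, 6148 and 6110 TPM in ES cell libraries, against 26137, 25696 and 36052 TPM in embryo libraries. MT-CO2 had 7883, 7833 and 7659 TPM in ES cell libraries, against 32021, 34797 and 43024 TPM in embryo libraries. Their log2 ratios were nearly alike, at -2.22 ± 0.16 for MT-CO1 and -2.22 ± 0.13 for MT-CO2.

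MT-CO3, the remaining core subunit of the same enzyme, had the smallest difference of the 9. Its levels were 6958, 6746 and 6844 TPM in ES cell libraries, against 11178, 12286 and 15186 TPM in embryo libraries. The groups still did not overlap, and the ES cell mean was 53.2% of the embryo mean (log2 ratio -0.90 ± 0.13). Taken as a sum, complex IV stood at 20832 ± 286 TPM in ES cells and 78792 ± 13508 TPM in embryos, or 26.4% of the embryo level.

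MT-ATP6 and MT-CYB are the only members of their complexes in the list. MT-ATP6 encodes the ATP synthase subunit that forms part of the proton channel. It had 7543, 7401 and 7238 TPM in ES cell libraries, against 19477, 21725 and 27317 TPM in embryo libraries, and its log2 ratio was -1.61 ± 0.14. MT-CYB encodes cytochrome b, the subunit of complex III at which ubiquinol is oxidised. It had 3236, 3199 and 3044 TPM in ES cell libraries, against 8490, 9410 and 12765 TPM in embryo libraries, and its log2 ratio was -1.67 ± 0.18. For both genes the lowest embryo library was more than 2-fold above the highest ES cell library.

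Along the heavy strand the difference from the embryos grew smaller from MT-ND1 to MT-CO3 and was large again at MT-ND4. The log2 ratios in gene order were -3.47 (MT-ND1), -3.12 (MT-ND2), -2.22 (MT-CO1), -2.22 (MT-CO2), -1.61 (MT-ATP6) and -0.90 (MT-CO3), followed by -2.58 (MT-ND4), -1.49 (MT-ND5) and -1.67 (MT-CYB). Spearman's rho of the ratio with gene order was 0.667 over the 9 genes, and 0.762 without MT-CO3. In CPM all 9 ratios were smaller in size, from -3.25 for MT-ND1 to -0.68 for MT-CO3, with the same rho. It is a description over genes of the same libraries and transcripts, and gene order was the only position used. The rho of the ratio with gene length was -0.08 over the 9 genes.

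**Figure D2:**
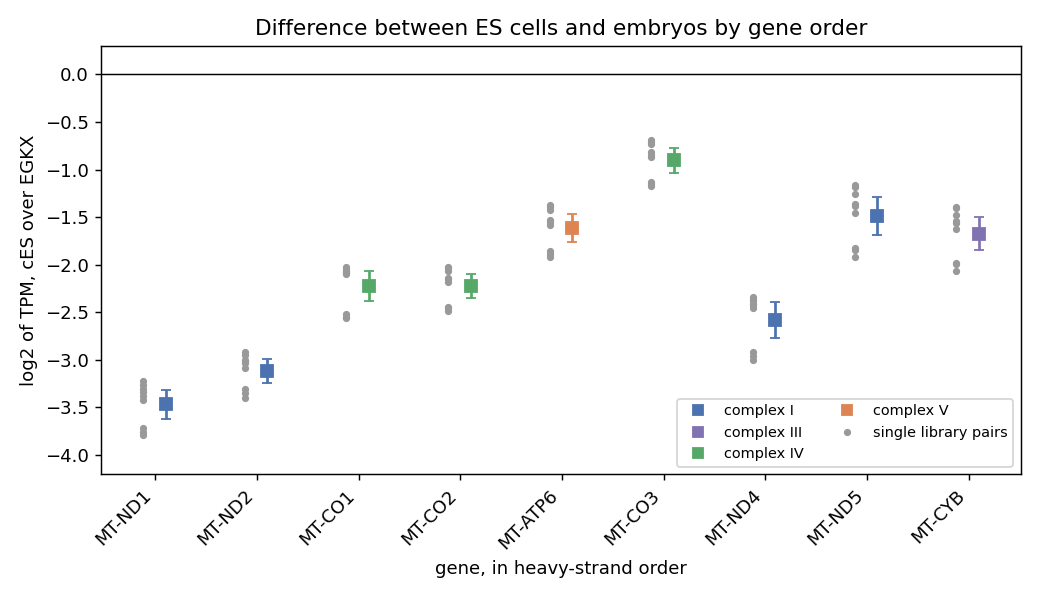
Log2 of the TPM ratio of ES cells to embryos for each gene in heavy-strand order. Squares are the difference of mean log2 TPM with its SE (3 libraries a group), coloured by respiratory complex, and grey points are the 9 single library pairs; all lie below 0, from -3.47 at MT-ND1 to -0.90 at MT-CO3.

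In embryos the levels themselves followed gene order. Mean TPM had a rho with gene order of -0.917 in embryos and -0.317 in ES cells (n = 9 genes each). The embryo levels went down from MT-ND1 (43548 ± 8026 TPM, SD, n = 3) and MT-CO2 (36614 ± 5722 TPM) over MT-CO1, MT-ND2, MT-ATP6, MT-CO3, MT-ND4 and MT-CYB to MT-ND5 (6245 ± 1515 TPM). In ES cells the order was MT-CO2 (7791 ± 117 TPM), MT-ATP6, MT-CO3, MT-CO1, MT-ND1, MT-CYB, MT-ND2, MT-ND5 and MT-ND4 (1898 ± 57.2 TPM). With gene length, mean TPM had a rho of -0.778 in ES cells and -0.494 in embryos, so shorter genes tended to have higher TPM, and in ES cells the levels followed length more closely than gene order. The 4 highest mRNAs in ES cells are thus the neighbours MT-CO1 to MT-CO3 with MT-ATP6.

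Neighbours in these orders were better resolved in ES cells. There, the ranges of no 2 neighbours in the order overlapped. In embryos they overlapped for all pairs of neighbours except MT-ATP6 above MT-CO3 and MT-CYB above MT-ND5. Within each single embryo library the order nevertheless held for all neighbours but one, since MT-ND2 was above MT-ATP6 in 2 of 3 libraries. The highest of the 9 was 4.10 times the lowest in ES cells and 6.97 times the lowest in embryos.

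The order among similar levels depends on how length is counted. Per kilobase of full length, in place of effective length, and with counts scaled to the same total in each library (CPM), MT-CO2 and MT-CO1 came first in ES cells with 4436 ± 31.1 and 4426 ± 43.0 CPM per kilobase, and their ranges overlapped. MT-ATP6 and MT-CO3 followed with 4210 ± 53.5 and 4128 ± 60.4 on that scale. In embryos MT-ND1 remained first, with 24373 ± 5110 CPM per kilobase, and MT-ND5 last, with 3964 ± 1074. The rho with gene order was then -0.4 in ES cells and -0.917 in embryos, and the rho with length -0.586 in ES cells and -0.318 in embryos.

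The composition of the mitochondrial mRNA pool, which does not depend on how libraries are scaled, also differed. Shares of the summed TPM of the 9 genes did not overlap between groups for 7 of them. The shares add up to the whole pool, so a smaller share of one gene raises others, and the 7 are not separate results. No like count was made over other IDs. MT-ND1 took 9.26% ± 0.0752 of the pool in ES cells and 22.1% ± 1.08 in embryos (SD, n = 3 each), and MT-ND2 took 6.44% ± 0.152 in ES cells and 12.1% ± 0.584 in embryos. MT-CO3 had the opposite position, with 16.3% ± 0.293 in ES cells and 6.56% ± 0.288 in embryos.

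Larger shares in ES cells were also found for MT-ATP6, with 17.6% ± 0.0373 against 11.6% ± 0.536 in embryos, for MT-ND5, with 5.19% ± 0.112 against 3.15% ± 0.249, and for MT-CYB, with 7.51% ± 0.114 against 5.17% ± 0.28. MT-ND4 had the smaller share in ES cells, 4.51% ± 0.0525 against 5.85% ± 0.329 in embryos. The groups overlapped for MT-CO1, with 14.7% ± 0.115 in ES cells and 14.8% ± 0.395 in embryos, and for MT-CO2, with 18.5% ± 0.0957 in ES cells and 18.6% ± 0.759 in embryos. By complex, the 4 complex I mRNAs held 25.4% ± 0.282 of the pool in ES cells and 43.2% ± 1.36 in embryos. The 3 complex IV mRNAs held 49.5% ± 0.406 in ES cells and 40.0% ± 0.672 in embryos. A larger share here does not mean a higher level, since all 9 levels were lower in ES cells.

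**Figure D3:**
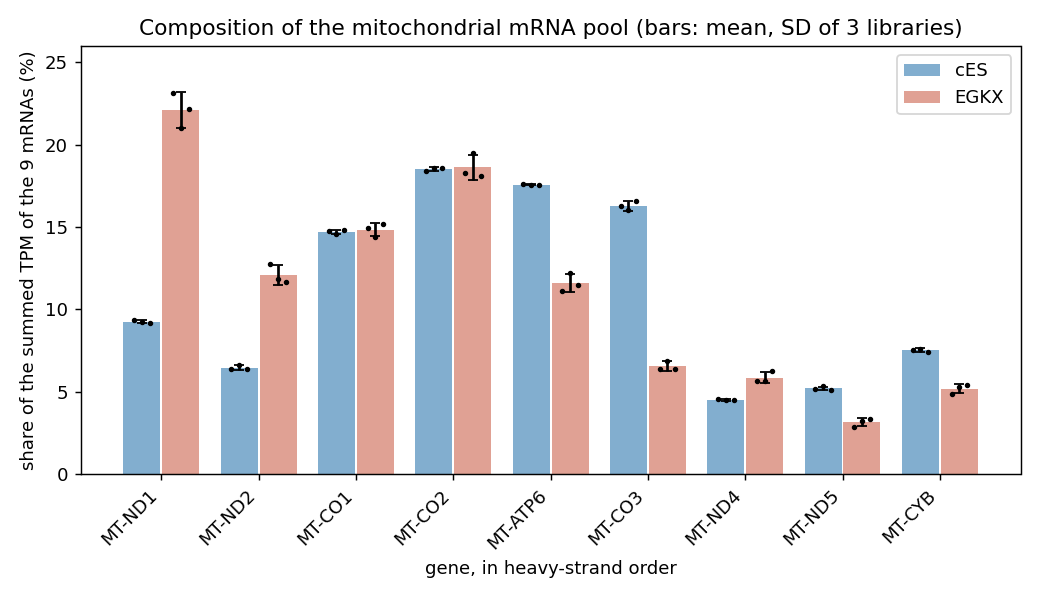
Share (%) of each mRNA in the summed TPM of the 9 mRNAs, with ES cells (cES) left of embryos (EGKX); bars are means, error bars the SD of 3 libraries and points the libraries. MT-ND1 and MT-ND2 hold larger shares in embryos, MT-CO3 and MT-ATP6 in ES cells, and MT-CO1 and MT-CO2 are alike in both.

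Ratios between neighbouring genes were also taken within each library. From the start of the list, MT-ND1 to MT-ND2 was 1.47, 1.40 and 1.45 in ES cell libraries, against 1.82, 1.77 and 1.90 in embryo libraries. MT-ND2 to MT-CO1 was 0.431, 0.454 and 0.429 in ES cell libraries, against 0.854, 0.821 and 0.768 in embryo libraries. The groups did not overlap in either ratio, and the second differed more.

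MT-CO1 to MT-CO2 was 0.801, 0.785 and 0.798 in ES cell libraries and 0.816, 0.738 and 0.838 in embryo libraries, so these neighbours kept the same proportion within the spread of the embryos. MT-CO2 to MT-ATP6 was 1.05, 1.06 and 1.06 in ES cell libraries, against 1.64, 1.60 and 1.57 in embryo libraries, with no overlap. Between this pair lie a tRNA gene and ATP8 in the RefSeq table.

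No tRNA gene lies between MT-ATP6 and MT-CO3, and their ratio differed as well. It was 1.08, 1.10 and 1.06 in ES cell libraries, against 1.74, 1.77 and 1.80 in embryo libraries. MT-ND4 to MT-CO3, with ND3, ND4L and tRNA genes between them, had the largest difference of the neighbours. It was 0.281, 0.281 and 0.269 in ES cell libraries, against 0.885, 0.822 and 0.973 in embryo libraries. The other directly adjacent pair, MT-ND5 and MT-CYB, differed less. Its ratio was 0.682, 0.701 and 0.692 in ES cell libraries and 0.592, 0.613 and 0.622 in embryo libraries.

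The widest contrast within the strand was between its first gene in the list and MT-CO3. MT-ND1 to MT-CO3 was 0.575, 0.577 and 0.554 in ES cell libraries, against 3.63, 3.05 and 3.47 in embryo libraries. MT-ND1 was therefore less abundant than MT-CO3 in each ES cell library and more abundant in each embryo library. MT-ND4 to MT-ND5 was 0.886, 0.846 and 0.874 in ES cell libraries and 1.97, 1.75 and 1.86 in embryo libraries, which also puts these neighbours in the opposite order.

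Embryo libraries differed from one another in mitochondrial mRNA far more than ES cell libraries did. The coefficient of variation of the members' CPM was 0.701% to 2.60% in ES cells and 17.3% to 27.1% in embryos. Its median over the members was 1.77% in ES cells and 21.0% in embryos, beside 5.28% in ES cells and 9.13% in embryos over all IDs tested. In ES cells the members thus varied less than the typical ID, which has far fewer counts, and in embryos, with all embryo libraries included, more. Over tested IDs with a mean of at least 10 CPM, the median in embryos was 7.24%.

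The third embryo library was the highest for all 9 genes. Its CPM was 1.33 (MT-ND2) to 1.54 (MT-ND4) times the mean of the other embryo libraries, with a median of 1.41 over the members and 0.957 over all IDs tested. CPM totals include the members, whose larger share in this library lowers the CPM of the other IDs. With totals without the members, the members' ratios ran from 1.40 (MT-ND2) to 1.62 (MT-ND4). A CPM ratio of at least 1.33, the lowest among the members, was reached by 3.08% of all IDs tested. Among the 7968 tested IDs with a mean of at least 10 CPM, 0.665% reached it. The members reach this cutoff by its choice and are counted in both shares, which give them no support. Without that library the median coefficient of variation of the members in embryos was 7.48%, and no like value was taken over all IDs. The median log2 TPM ratio of the members was -2.22 with all libraries and -2.07 without the third embryo library. Without it the ratios ran from -3.32 for MT-ND1 to -0.77 for MT-CO3, and their rho with gene order was 0.65.

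The differences of embryo libraries 2 and 3 from library 1 also varied with gene order. Library 2 over library 1 was 0.923 at MT-ND1, 0.945 at MT-ND2 and 0.983 at MT-CO1, and 1.09 at MT-CO2, 1.12 at MT-ATP6, 1.10 at MT-CO3, 1.02 at MT-ND4, 1.15 at MT-ND5 and 1.11 at MT-CYB. The first 3 genes were thus lower, and the others higher, in library 2. Library 3 over library 1 was 1.24 at its lowest (MT-ND2) and 1.58 at its highest (MT-ND5). Spearman's rho with gene order was 0.8 for library 2 over 1 and 0.883 for library 3 over 1, which share library 1, and -0.05 for library 3 over 2 (n = 9 genes each, a description). Among ES cell libraries the same ratios to the first library lay between 0.941 and 1.02. RNA quality values were not among the sources used here, so the part of RNA quality in these patterns was not tested.

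**Figure D4:**
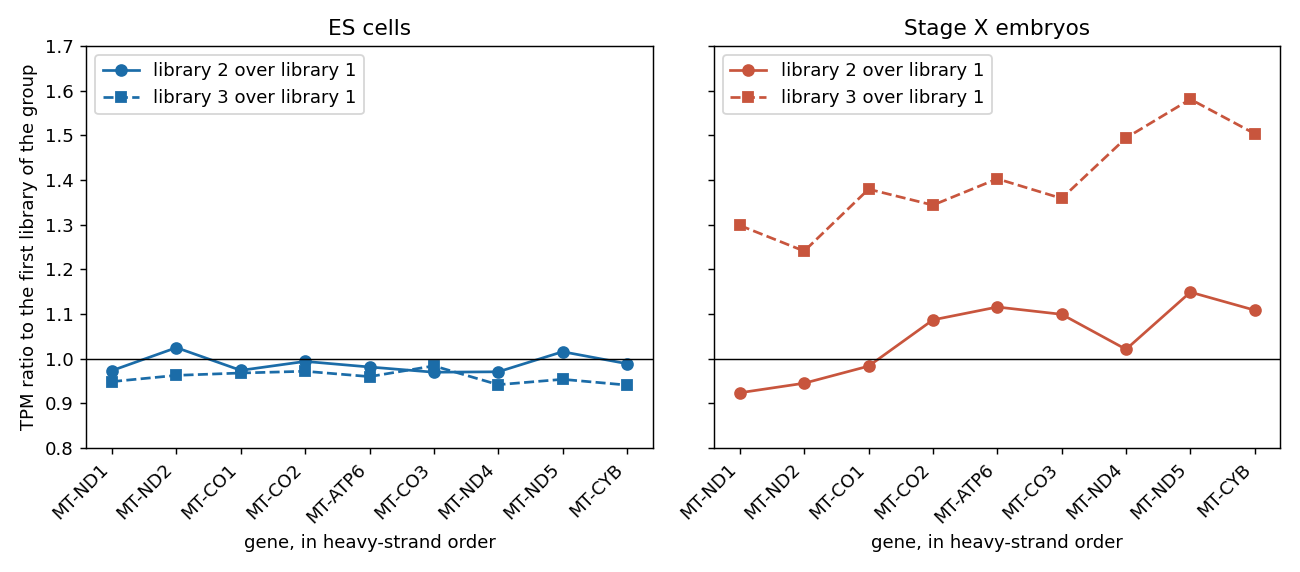
TPM ratio of the second and of the third library to the first library of the same group, for each gene in heavy-strand order, ES cells on the left and embryos on the right. The ES cell ratios stay between 0.941 and 1.02, while the embryo ratios reach 1.58 and are higher towards the later genes.

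Because the 9 mRNAs took so much of the embryo reads, they moved the scale of the other genes. Leaving them out of the totals multiplies the CPM of every other ID by 1.03 in each ES cell library and by 1.11, 1.11 and 1.17 in the embryo libraries. By count, MT-CO1 was the most abundant ID of all in each embryo library and ranked 3 in each ES cell library. By TPM, MT-ND1 ranked 1 in each embryo library and between 24 and 26 in the ES cell libraries. All 9 were among the 20 highest IDs by TPM in each embryo library and 4 were in each ES cell library, namely MT-CO2, MT-ATP6, MT-CO3 and MT-CO1.

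The ID most like the 9 in its pattern over all libraries had the length of a mitochondrial gene. Likeness was Pearson's r between log2(CPM + 1) of an ID and the log2 summed CPM of the members over 6 libraries, among 7959 other IDs with a mean of at least 10 CPM. With only 2 separate groups of libraries, many IDs reach a high r, and 134 were above 0.99. The highest r, 0.9997, was that of ENSGALG00000042478, a single transcript of 297 bases, the length of ND4L in the RefSeq table, with 121 ± 3.28 CPM in ES cells and 690 ± 173 CPM in embryos (SD, n = 3 each). The next ID, with an r of 0.9990, has several transcripts, whose mean length differs between the files of the groups, and had 219 ± 2.91 CPM in ES cells and 343 ± 18.4 CPM in embryos.

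Over the 3 embryo libraries alone, 95 IDs had the same order of libraries as the members and an r of at least 0.99, and those with the largest coefficient of variation were named. The first, ENSGALG00000004627, varied by 32.6% in embryos, with 12.7, 12.7 and 21.5 CPM in the embryo libraries. Its mean CPM was similar in both groups, with 16.1 ± 0.467 CPM in ES cells and 15.6 ± 5.1 CPM in embryos. Its transcript is 1227 bases long in the ES cell files and 3285 in the embryo files, so these CPM values do not compare its level between the groups. The second, ENSGALG00000032465, is a single transcript of 165 bases, the length of ATP8, and varied by 27.3% in embryos, with 45.9 ± 3.06 CPM in ES cells and 161 ± 44.1 CPM in embryos. Of these 4 IDs, then, 2 have the length of a mitochondrial gene, and the share of such lengths among the 7959 IDs compared was not counted. The files give no name to any of them, and length alone does not fix one.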

How the data were processed

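Each library has a table in RSEM's layout, in which the authors deposited expected counts (read counts estimated per gene), TPM and FPKM values and gene lengths, per the file headers. The submitters' processing notes name FastQC, STAR, RSEM and DESeq2 and give no versions. RNA was column-purified and libraries followed a BGISEQ-500 protocol, per the labels. The sources used here give no genome build, annotation, strand setting or poly(A) selection. The FPKM values deposited by the authors were not used.

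The deposited expected counts were divided by the sum over all IDs of a library for CPM. Log2 ratios are differences of mean log2 TPM. Groups follow the sample titles. For the background, counts of the IDs in all 6 files were rounded and fitted with edgeR 4.0.16 in R 4.3.3 (filterByExpr, TMM, glmQLFit, glmQLFTest, Benjamini-Hochberg adjustment), cells against embryos, without a block. The fit was also run on simulated counts with the same spread for every gene and both groups, unlike these libraries. That run is not used as support here. Alternatives used limma 3.58.1 and DESeq2 1.42.0. Members, lists and tests were chosen with earlier results of these data known. Named are the 9 members, and outside them IDs most like them in pattern (2 over 6 libraries, and 2 over the embryo libraries with the same order, an r of at least 0.99 and the largest coefficient of variation). Lists of other pathway genes and cell type markers were not run, because the files hold no names. Values after ± are the SD or SE between libraries; the counting error given covers counting only. Figures were drawn with matplotlib 3.10.9.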

Additional observations from a re-analysis of the deposited data

How the results depend on the processing

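The 9 members were lower in ES cells, with log2 ratios below 0, under every alternative run: TPM, CPM, TMM, DESeq2 size factors, upper quartile, totals without the members, and each library left out. Of the 11614 IDs tested, 9883 were called, and 9633 to 9959 in fits that each left out a library. An alternative added after seeing the data fitted only IDs with identical models, meaning a single transcript of equal length in all files. There, 890 of 1090 were called in either direction, since fewer were tested, and 457 of the 1090 were called lower. Called lower were 8 of the 8 members there (9 of 9 elsewhere), which describes genes chosen on this contrast. The effective length offset (floor of 1 base) moved the median of all IDs to 0.15. Libraries with the same number did not deviate together (correlations 0.0181, 0.0089 and -0.0371), so the numbers were not read as a pairing. The replicate block gave 9823 calls.

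The ES cell share of counts was 23.9% of that of embryos, and 22.4% to 27.3% leaving out single libraries. Over the IDs listed in both groups it was 24.1%. The median log2 ratio was -2.30 to -2.07 and the log2 ratio of complex I, III, IV and V -3.07 to -2.83, -1.79 to -1.50, -1.99 to -1.77 and -1.72 to -1.48 in those fits. The last value of each of these log2 ranges is that without the third embryo library. In CPM, complex I, III, IV and V stood at -2.57, -1.46, -1.78 and -1.40 in place of -2.98, -1.67, -1.91 and -1.61. Single members of complex I moved less, such as MT-ND1 from -3.47 to -3.25 and MT-ND5 from -1.49 to -1.28. A sum of CPM gives long genes more weight than a sum of TPM. In complex I the longer MT-ND5 and MT-ND4 differed less between groups than the shorter MT-ND1 and MT-ND2. The move was not split by gene. Shares within the pool did not overlap for 7 to 9 genes, and 9 was reached only without the second embryo library. The rho with gene order was 0.65 to 0.667 with each library left out and 0.762 without MT-CO3 (chosen after its value was seen). The median coefficient of variation in embryos was 7.48% to 26.3% with each embryo library left out, lowest without library 3. Depth limits none of these values.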

Other observations

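Among the 6 mitochondrial genes of the RefSeq table that are neither members nor tRNA genes, 4 have the length of a single-transcript ID with counts in both groups. The comparison was made after values were seen, and equal length does not name an ID. The ID with the length of ND4L, which lies between MT-CO3 and MT-ND4, had a log2 CPM ratio of ES cells to embryos of -2.48, beside -0.68 for MT-CO3 and -2.37 for MT-ND4 on the same scale. The ID with the length of ATP8, between MT-CO2 and MT-ATP6, stood at -1.78, beside -2.01 for MT-CO2 and -1.40 for MT-ATP6. Other IDs of that length had no counts in any library. At 165 bases the ID is shorter than the mean fragment, so its counts can come from short fragments only. An ID with the 976 bases of an rRNA gene had 456 ± 10.7 CPM in ES cells and 2355 ± 191 CPM in embryos (SD, n = 3 each), a log2 ratio of -2.36, and in it the third embryo library was not the highest (2504, 2139 and 2421 CPM in the embryo libraries). An ID with the 522 bases of ND6 had 36.7 ± 2.25 CPM in ES cells and 113 ± 31.7 CPM in embryos, a log2 ratio of -1.59.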
